A study of Mus musculus with 4 samples.

Results

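The cells described here are 120 of the 10077 cells in a single-cell RNA sequencing table of GFP+ cells sorted from mouse lung. They were chosen by counts of unique molecular identifiers (UMIs, each a counted RNA molecule): at least 2 UMIs summed over Adgre4, Treml4 and Cd300e, at most 2 UMIs summed over C1qa, C1qb and C1qc, and Sftpc below 4% of the cell's UMIs. They are called non-classical monocyte-like cells, or monocyte-like cells, for the other markers they carry. The library of null mice after pneumonectomy (null PNX) held 27 of them, that of null mice after sham surgery (null sham) 51, that of control mice after pneumonectomy (control PNX) 15 and that of control mice after sham surgery (control sham) 27.

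Pneumonectomy (PNX) removes part of the lung, and the lung that remains then grows. The series set it against sham surgery in mice with and without Cdc42, a small GTPase of the cytoskeleton, in alveolar type II (AT2) cells, which make surfactant. Null mice were Sftpc-CreER; Cdc42flox/-; Rosa26-mTmG, with one floxed and one deleted Cdc42 allele. Control mice were Sftpc-CreER; Cdc42flox/+; Rosa26-mTmG, with one floxed and one normal allele, so Cre, a floxed allele and the reporter were common to all groups. All mice had 4 doses of tamoxifen and are labelled postnatal day 80, and PNX libraries are labelled day 21 after surgery. CreER was driven from Sftpc, a gene of AT2 cells, so that loss of both Cdc42 copies refers to AT2 cells. As the genotype is written, other cells of null mice carry the deleted allele too, and those of control mice do not. GFP marks cells in which Cre was active. Each group was 1 library, and how many mice went into it was not stated. No difference between libraries therefore has a replicate check.

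Non-classical monocytes are blood monocytes that patrol the inner wall of vessels, and the lung holds many of them in its capillaries. In the mouse they arise from classical, Ly6c2-positive monocytes, a step that needs the nuclear receptor Nr4a1 and the transcription factor Cebpb. They lose Ccr2, the receptor by which classical monocytes leave the marrow, and gain the fractalkine receptor Cx3cr1, the integrin chain Itgal, the sialoglycoprotein Spn and the Fc receptor Fcgr4. Of the genes that chose the cells, Adgre4 encodes an adhesion G protein-coupled receptor, Treml4 a TREM-like receptor that binds dying cells, and Cd300e an activating receptor of the CD300 family. C1qa, C1qb and C1qc encode the chains of complement C1q, which many tissue macrophages make.

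The promoters of the markers that chose the cells are printed with those of Fcgr4 and Plac8, both higher in these cells than in macrophages, to show the letters that were searched for motifs of factors described below. Each runs from 250 bases before to 50 bases after the RefSeq start in GRCm38.p6, 5′ to 3′ on the gene's strand: chr17:48264045-48264344 (+) for Treml4, chr11:115061990-115062289 (-) for Cd300e, chr17:55749734-55750033 (+) for Adgre4, chr1:171018676-171018975 (+) for Fcgr4 and chr5:100572156-100572455 (-) for Plac8. Capitals mark a motif on either strand.
Treml4: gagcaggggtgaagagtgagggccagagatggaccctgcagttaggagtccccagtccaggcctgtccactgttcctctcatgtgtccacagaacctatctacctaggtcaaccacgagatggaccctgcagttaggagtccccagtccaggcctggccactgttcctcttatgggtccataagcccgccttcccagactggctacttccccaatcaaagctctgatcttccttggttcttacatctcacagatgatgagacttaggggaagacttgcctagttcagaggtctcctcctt
Cd300e: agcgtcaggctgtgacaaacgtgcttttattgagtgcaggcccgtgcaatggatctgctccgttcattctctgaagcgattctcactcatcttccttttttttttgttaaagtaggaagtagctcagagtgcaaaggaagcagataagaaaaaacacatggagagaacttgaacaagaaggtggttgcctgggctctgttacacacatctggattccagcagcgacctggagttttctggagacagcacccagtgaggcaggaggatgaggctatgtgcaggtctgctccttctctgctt
Adgre4: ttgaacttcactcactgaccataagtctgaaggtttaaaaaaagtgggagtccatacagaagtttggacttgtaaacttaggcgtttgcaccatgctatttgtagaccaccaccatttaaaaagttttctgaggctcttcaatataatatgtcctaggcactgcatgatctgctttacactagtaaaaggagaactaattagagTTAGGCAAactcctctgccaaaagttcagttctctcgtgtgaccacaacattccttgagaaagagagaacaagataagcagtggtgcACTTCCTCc
Fcgr4: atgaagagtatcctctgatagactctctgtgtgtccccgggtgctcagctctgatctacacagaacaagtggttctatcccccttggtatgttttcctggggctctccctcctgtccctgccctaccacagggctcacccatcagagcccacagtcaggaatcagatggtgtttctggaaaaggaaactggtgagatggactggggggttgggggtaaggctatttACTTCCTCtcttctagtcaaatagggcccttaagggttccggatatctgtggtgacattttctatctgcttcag
Plac8: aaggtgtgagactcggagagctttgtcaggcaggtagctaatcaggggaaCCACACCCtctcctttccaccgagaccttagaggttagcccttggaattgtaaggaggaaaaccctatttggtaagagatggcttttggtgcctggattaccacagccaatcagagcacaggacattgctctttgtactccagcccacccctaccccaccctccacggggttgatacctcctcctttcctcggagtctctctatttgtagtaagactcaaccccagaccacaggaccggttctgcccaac
The motifs were AAAGGTCA (NR4A), TTGCNNAA (C/EBP), GAGGAAGT (PU.1, the product of Spi1) and CCACACCC (KLF), and the matches in these windows did not overlap. Adgre4 held TTAGGCAA, the C/EBP motif on the other strand, at positions 205 to 212 of its window and ACTTCCTC, the PU.1 motif on the other strand, at positions 292 to 299. Fcgr4 held ACTTCCTC at positions 227 to 234. Plac8 held CCACACCC at positions 51 to 58. Plac8 has another RefSeq start in the table, whose window, chr5:100563047-100563346 (-), is not printed and held TTCTGCAA, a C/EBP match on the other strand, at positions 239 to 246. The windows of Treml4 and Cd300e held none of these motifs. Of all 27025 promoters in the table, 1.46% held the NR4A, 10.8% the C/EBP, 3.28% the PU.1 and 3.57% the KLF motif. A match is a description of letters, not a bound site.

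The monocyte-like cells had medians of 4478 UMIs in null PNX, 3908 in null sham, 2740 in control PNX and 3678 in control sham, and summed to between 50411 UMIs in control PNX and 248453 in null sham. Over all cells of a library the medians were 9705.5, 4844.5, 4713 and 4503 UMIs in the same order, and the smallest cells had 2669, 1379, 1171 and 691. In the monocyte-like cells Sftpc stood at 14.1% of its level in cells with at least 4% Sftpc in null PNX, 11% in null sham, 4.14% in control PNX and 7.12% in control sham. Sftpc had 11665, 8336, 5177 and 9166 CPM in the monocyte-like cells of null PNX, null sham, control PNX and control sham, where CPM is a gene's share of the UMIs summed over a cell set, multiplied by the same constant in every set. In lymphocyte-rule cells (at least 2 UMIs over Cd3d, Cd3e, Cd3g, Cd79a and Ms4a1) it had 10633, 5552, 5088 and 7771 CPM in the same order, so that the monocyte-like cells stood above them most in null sham. There were 54 barcodes found in more than 1 library, and 1 monocyte-like cell had one.

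The chosen markers were mostly found together, which describes the choice of cells. All 3 had a UMI in 51 cells, 2 of them in 50 and 1 of them in 19. The median was 5 marker UMIs and the highest 14. At the edge of the rule 23 cells had exactly 2 marker UMIs, while 60 cells with 1 were left out. C1q UMIs were 0 in 112 cells, 1 in 7 and 2 in 1 cell, and a cell with 5 was left out. Sftpc alone kept out 6 cells, at 4.7% to 6.2%. Treml4 had 244, 604, 397 and 496 CPM in null PNX, null sham, control PNX and control sham, Adgre4 238, 382, 337 and 452 CPM and Cd300e 133, 282, 397 and 186 CPM. In macrophage-rule cells Treml4 had a UMI in 8% of cells, against 84.2% of the monocyte-like cells.

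Markers that the rule did not use were then counted. The gene lists were chosen with earlier results of these data known, so these counts describe the name and do not test it. Of 22 further non-classical markers, the monocyte-like cells had a UMI for a median of 11 per cell when each cell was thinned to 1500 UMIs, against 3 in macrophage-rule cells and 1 in lymphocyte-rule cells. Macrophage-rule cells are the 100 other cells with at least 3 UMIs over C1qa, C1qb, C1qc, Marco and Mrc1 and the same Sftpc limit. They were 60 cells in null PNX, 20 in null sham, 7 in control PNX and 13 in control sham. Thinning left 118 of the 120 cells, and 4 of these had no more markers than the median macrophage-rule cell. Ace, which encodes angiotensin-converting enzyme, had a UMI in 78.3% of monocyte-like, 2% of macrophage-rule and 0.768% of lymphocyte-rule cells. Spn had one in 59.2%, 8% and 19% of these sets. Cx3cr1 was more widely shared, with 50% of monocyte-like and 26% of macrophage-rule cells.

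Classical markers were low but present. Ccr2 had a UMI in 25.8% of the monocyte-like cells, Ly6c2 in 18.3%, F13a1 in 3.33% and Vcan in 0.833%. The shares of Ccr2 and Ly6c2 in lymphocyte-rule cells were 17.1% and 13.6%. A set of 59 cells chosen by at least 3 UMIs over Ly6c2, Ccr2, F13a1 and Vcan, with limits on other markers, had Ly6c2 at 779 CPM, against 144 CPM in the monocyte-like cells. Ly6c2 is part of that rule, so its level in the 59 cells describes the choice. The set also held dendritic cell and basophil markers. With 9 cells in null sham it was too small for the test, so only levels are given.

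Markers of lymphocytes and basophils were near 0. T and NK cell markers summed to 18.8 CPM in the monocyte-like cells against 2668 CPM in lymphocyte-rule cells, with Klrb1c and Gzma at 0. Cd3d, Cd3e and Cd3g are among these markers and also chose the lymphocyte-rule cells. B cell markers summed to 10.3 CPM, with Cd79a and Ms4a1 at 0, and the basophil markers Mcpt8, Cpa3 and Ms4a2 were at 0. Neutrophil markers summed to 818 CPM in null PNX, 459 in null sham, 119 in control PNX and 1568 in control sham, with Ly6g at 0 in all of them. Over all libraries they summed to 750 CPM, against 364 CPM in macrophage-rule cells, 6403 CPM in lymphocyte-rule cells and 1157 CPM in cells with at least 4% Sftpc. In lymphocyte-rule cells the sum was 346 CPM in null PNX, 2020 in null sham, 38604.5 in control PNX and 2114 in control sham. In 12 monocyte-like cells at least 3 UMIs of another lineage were found, in 9 of neutrophils, in 2 of conventional dendritic cells, in 1 of plasmacytoid dendritic cells and in 1 of endothelium. A cell could count under more than one lineage. Doublets were not removed. By the same count 22, 6, 3 and 1 macrophage-rule cells of null PNX, null sham, control PNX and control sham had UMIs of another lineage. The setting without cells of another lineage leaves out these as well as the 12 wherever both sets are compared. Calls of named genes lost there are given beside the main values. Platelet markers were part of the count. In macrophage-rule cells of control PNX they summed to 2240 CPM, all of it Pf4. A gene that macrophages make themselves would count too, so the cells left out need not be mixtures, which was not tested.

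**Figure D1:**
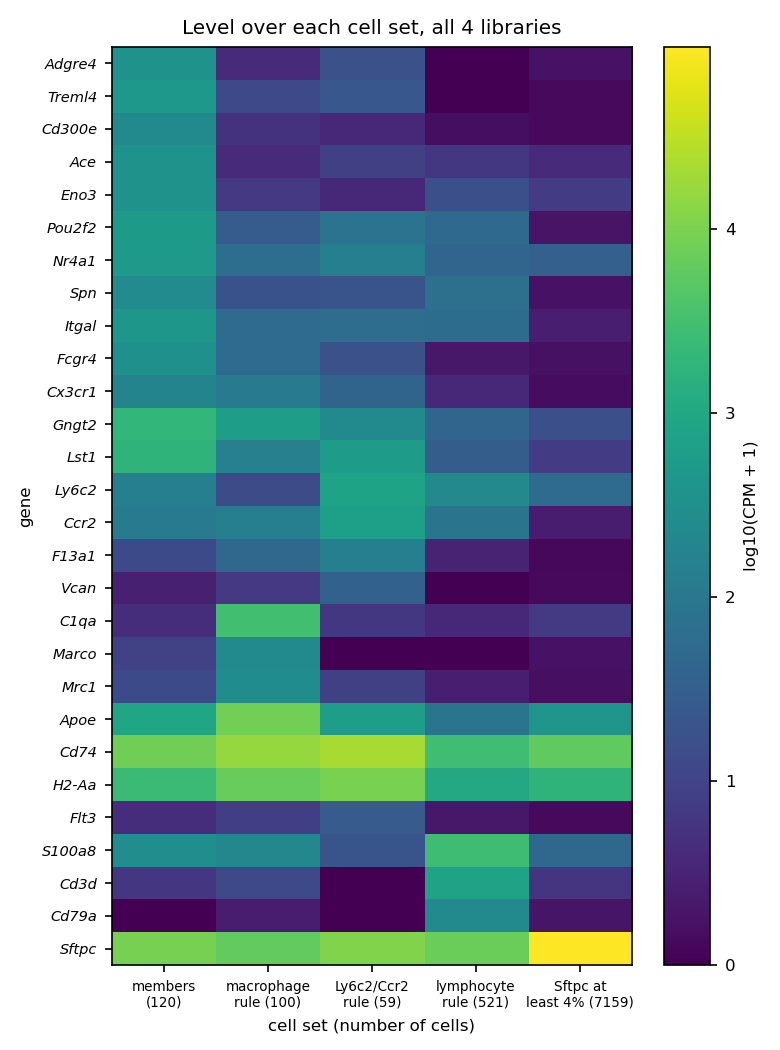
Level of 28 genes as log10(CPM + 1), from UMIs summed over all 4 libraries, in 5 cell sets (columns, number of cells in brackets). The monocyte-like cells (members) have Ace at 368 CPM, against 2.91 CPM in macrophage-rule cells. Adgre4, Treml4, Cd300e, C1qa, Marco, Mrc1, Ly6c2, Ccr2, F13a1, Vcan, Cd3d, Cd79a and Sftpc chose the sets. Flt3 and S100a8 were limited in the Ly6c2/Ccr2 set. The levels of all these genes in those sets describe the choice.

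Against macrophage-rule cells, the monocyte-like cells were higher for 14 of 18 non-classical markers and 7 of 14 transcription factors tested. Nr4a1, Cebpb and Pou2f2, all higher, count among both the markers and the factors. Higher too were 4 of 6 interferon-response genes tested: Ifitm2, Ifitm3, Ifitm6 and Ly6e. The monocyte-like cells were lower for 8 of 15 lipid and lysosome genes and 6 of 7 class II antigen-presentation genes. UMIs were summed per library and cell set and compared with edgeR's quasi-likelihood test, with the library as a block. The genes of both rules were left out, and a gene could pass the low-count filter through the set where it was high. With no such filter 18 of 22 non-classical markers were higher and 1 lower, and of 23 transcription factors 7 and 2. Of 16 interferon-response genes 5 were higher and 0 lower, of 17 lipid and lysosome genes 0 and 8, and of 10 class II genes 0 and 7. At a Benjamini-Hochberg adjusted p of 0.05, 140 of 1612 genes were higher (8.68%) and 117 lower (7.26%), and the median log2 fold change of all was 0.03. For 185 of the 257 genes called, the 4 libraries of one set lay entirely apart from those of the other. Of all genes tested 17.4% did so. In the 7 macrophage-rule cells of control PNX 3 counts are 146 CPM, and in the 13 of control sham 44.3 CPM. A value of 0 CPM there does not exclude a level below these. Without null sham, the library with most monocyte-like cells, 204 of the 257 were still tested, all in the same direction, and 47 genes were higher and 55 lower. Of the genes named below as called, Icam1, Fcgr4, Cd300ld, Itga4, Serpinb10, Ly6i, Rasgrp2, Gatm, Atp6v0d2, C3ar1 and Pilrb2 were no longer tested there. These, and Adgre1, Cfp, Fcgr2b, Fcgrt and Timp2, were also not tested without the cells of another lineage of both sets.

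Of the 22 non-classical markers outside the rule, 18 passed the filter on low counts, 14 were higher and 1 lower (without null sham 17 were tested, 11 higher and 0 lower). Plac8, a small cysteine-rich protein of myeloid cells, had 2877, 3920, 3829 and 4968 CPM in the monocyte-like cells of null PNX, null sham, control PNX and control sham, against 120, 0, 0 and 14.8 CPM in their macrophage-rule cells. No library of one set came near the other (log2 fold change 6.07, SE 0.57, edgeR adjusted p = 1.32e-05). Ace had 162, 423, 615 and 452 CPM against 0, 15.3, 0 and 0 CPM in the same order. It was lowest in null PNX, yet above every macrophage-rule library (log2 fold change 6.01, SE 0.58, edgeR adjusted p = 1.78e-05). Eno3, an enolase best known from muscle, had 238, 342, 357 and 611 CPM against 6.41, 7.66, 0 and 0 CPM, again without overlap (log2 fold change 5.45, SE 0.49, edgeR adjusted p = 1.32e-05). Gngt2 (2.02), a G protein subunit, Clec4a1 (2.52), a C-type lectin, and Tnfrsf1b (2.15), a TNF receptor, were higher too. The marker that was lower was Ear2, an eosinophil-type ribonuclease that alveolar macrophages also make, at -1.37, and lost its call without null sham (-1.65). Cx3cr1 was at 0.75 and did not pass (edgeR adjusted p = 0.355), but passed without null PNX (1.52).

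Of 24 transcription factors listed, 14 were tested, 7 were higher and 1 lower (without null sham 13 were tested, 5 higher and 1 lower). Nr4a1 had 336, 604, 615 and 531 CPM against 83.4, 38.3, 0 and 0 CPM (log2 fold change 3.18, SE 0.50, edgeR adjusted p = 0.000581). Pou2f2, a POU-domain factor known from B cells, had 307, 648, 655 and 585 CPM against 25.6, 23, 0 and 59 CPM (3.83, SE 0.39). Neither had a macrophage-rule library within the range of the monocyte-like cells. Cebpb was abundant in both sets, with 2639, 4878, 3590 and 2993 CPM against 1116, 1034, 925 and 634 CPM (1.81, SE 0.23). The Krüppel-like factors Klf4 (2.23) and Klf2 (2.03), and Spi1 (1.28), which encodes the myeloid factor PU.1, were higher, as was Irf5 (1.17). Calls were lost for Spi1 (1.02 without null sham) and Irf5 (0.99 without null sham and 0.98 without control PNX).

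Fc receptors went both ways: of 6 listed, 5 were tested, 2 were higher and 3 lower (without null sham 4 were tested, 0 higher and 1 lower; without the cells of another lineage 2 were tested, 1 higher and 0 lower). Fcgr4, an activating IgG receptor, had 98.6, 398, 615 and 328 CPM against 53.4, 92, 0 and 14.8 CPM (2.08, SE 0.48). Fcgr2b, the inhibitory IgG receptor, had 63.8, 20.1, 59.5 and 0 CPM against 378, 215, 195 and 339 CPM (-3.24, SE 0.48). The sets did not overlap for either. Fcer1g, the signalling chain of several Fc receptors, was at 1.16, Fcgr3 at -1.09 and the neonatal receptor Fcgrt at -1.53, with calls lost for Fcer1g (0.80 without null sham, 1.12 without control PNX and 1.05 without control sham), Fcgr3 (-0.90 without null sham and -1.09 without control sham) and Fcgrt (-0.996 without null sham and -1.37 without control sham). The call of Fcgr3 was also lost at -0.75 without the cells of another lineage.

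Of the CD300, TREM and ADGRE receptors outside the rule, 4 were tested, 3 were higher and 1 lower (without null sham 3 were tested, 1 higher and 0 lower; without the cells of another lineage 2 were tested, 2 higher and 0 lower). Cd300ld (2.05), the inhibitory receptor Cd300a (1.67) and Adgre5 (1.52) were higher, and Adgre1, which encodes the macrophage antigen F4/80, was lower (-1.79). Calls were lost for Cd300a (1.37 without null sham), Adgre5 (1.08 without null PNX) and Adgre1 (-1.60 without null sham). Trem3 was too low for the test and had a UMI in 45.8% of monocyte-like and 2% of macrophage-rule cells, while Trem2, a lipid-sensing receptor of macrophages, had one in 12.5% and 55%. Of 15 genes of paired receptors and their signalling chains, 10 were tested, 6 were higher and 0 lower, but without null sham 9 were tested, 0 higher and 0 lower. Pilrb2, an activating paired receptor, had 104, 109, 198 and 204 CPM against 27.8, 38.3, 0 and 14.8 CPM (2.05, SE 0.43).

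Adhesion genes showed fewer calls: of 17, 9 were tested, 3 were higher and 0 lower (without null sham 8 were tested, 0 higher and 0 lower). Itgal, the alpha chain of LFA-1, had 87, 568, 734 and 602 CPM against 40.6, 23, 292 and 148 CPM, so that null PNX lay within the macrophage-rule range (2.07, SE 0.44). The other calls were Itga4 (2.24), an integrin chain that binds VCAM-1, and Icam1 (1.41), and calls were lost for Itgal (1.37 without null sham) and Icam1 (1.45 without control sham). Of 17 interferon-response genes 6 were tested, 4 were higher and 0 lower (without null sham 5 were tested, 4 higher and 0 lower). Ifitm3, a membrane protein that limits virus entry, had 2280, 3659, 3908 and 4242 CPM against 404, 943, 48.7 and 162 CPM (3.05, SE 0.43), and Ifitm6 (4.24), Ly6e (1.95) and Ifitm2 (1.74) were the others. The remaining leading genes were Serpinb10 (4.03), a serine protease inhibitor, Pglyrp1 (3.85), a peptidoglycan recognition protein, Ly6i (3.85), Lst1 (3.32) and Rasgrp2 (2.97), an activator of Rap1.

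Among the 12 lowest genes, C3ar1, the receptor for complement C3a, had 0 UMIs in the monocyte-like cells and 171, 92, 97.4 and 88.5 CPM in macrophage-rule cells, which makes it at least 28.4-fold lower over the sums with 3 counts in place of 0. Spp1, which encodes osteopontin, had 238, 32.2, 19.8 and 35.4 CPM against 10755, 261, 828 and 885 CPM (-4.84, SE 0.40), highest by far in the macrophage-rule cells of null PNX. Ctsd, a lysosomal protease, had 423, 177, 19.8 and 124 CPM against 3242, 1579, 1169 and 1077 CPM (-3.37, SE 0.29). Every macrophage-rule library lay above every library of monocyte-like cells for all 3. For C3ar1 the 97.4 CPM of control PNX is below 146 CPM, the level of 3 counts in those macrophage-rule cells. The other leading genes were Ltc4s (-5.57), leukotriene C4 synthase, Dab2 (-4.91), an endocytic adaptor, Timp2 (-4.11), Axl (-3.79), a receptor for dying cells, Pld3 (-3.67), Gatm (-3.53), Atp6v0d2 (-3.52), a subunit of the proton pump, Ear10 (-3.41) and properdin, Cfp (-3.30), which lost its call without null sham (-2.29).

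Of 18 lipid and lysosome genes 15 were tested, 0 were higher and 8 lower (without null sham 14 were tested, 0 higher and 5 lower), among them the apolipoprotein Apoe (-2.61), the lipase Lpl (-2.99) and the sterol exporter Abcg1 (-2.81). The call of Apoe was lost at -1.62 without the cells of another lineage. Of 15 alveolar macrophage markers, the 7 tested were lower, Chil3 (-3.27) among them (without null sham 6 were tested, 0 higher and 5 lower). With no low-count filter 13 were tested, 0 higher and 9 lower. Marco and Mrc1 are on this list and helped choose the macrophage-rule cells, so this direction follows in part from the choice. MHC class II genes were lower in 6 of 7 tested, out of 10 (without null sham 6 were tested, 0 higher and 2 lower). H2-Ab1, a class II chain, had 2326, 660, 3531 and 2825 CPM against 4020, 5778, 6037 and 14239 CPM (-1.83, SE 0.36). Cd74, the invariant chain, had 9205, 5405, 16861 and 8723 CPM against 10622, 18651, 19232 and 49224 CPM, with ranges that overlap (-1.24, SE 0.35), and the call was lost for Cd74 (-1.06 without null sham and -0.78 without control sham). It was also lost at -1.15 without the cells of another lineage. No call either way was made among 7 survival genes and 8 AT2 genes tested. Of the survival genes 2 of 6 were higher without null PNX, 1 of 7 without control sham and 1 of 6 with at least 3 marker UMIs. Without the cells of another lineage 1 of 6 AT2 genes tested was higher. Of 14 general mononuclear phagocyte genes tested 4 were higher and 4 lower, of 7 inflammatory genes 0 and 2, and of 3 complement genes 0 and 2. Without null sham these counts were 0 and 1 of 14, 0 and 1 of 7 and 0 and 0 of 1 tested. Without the cells of another lineage 12, 6 and 1 of these were tested, with 3 and 1, 0 and 1, and 0 and 0 called. Csf1r, the receptor monocytes need to live, was at 0.31 (edgeR adjusted p = 0.482).

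**Figure D2:**
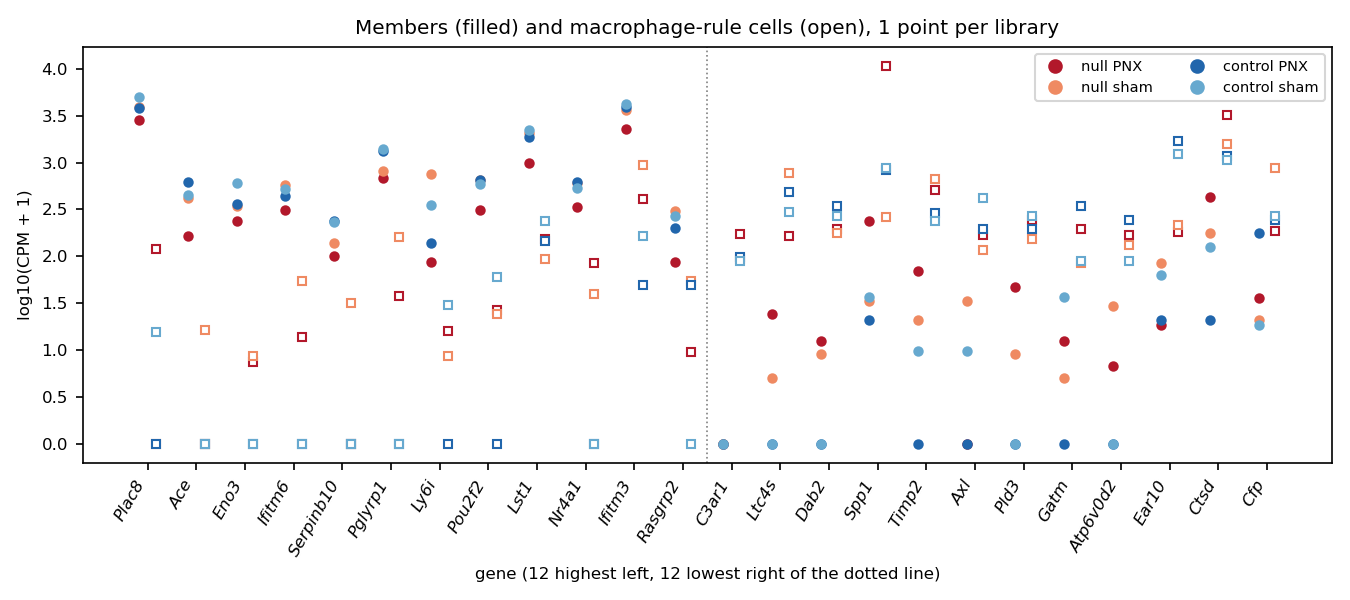
Level of the 12 highest and 12 lowest genes as log10(CPM + 1), with 1 point per library: the monocyte-like cells (members) and, to their right, the macrophage-rule cells. Plac8 lies between 2877 and 4968 CPM in the monocyte-like cells and at most at 120 CPM in macrophage-rule cells.

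For most genes the variance between monocyte-like cells was close to the mean. Over 118 thinned cells and 2096 genes, the median of variance over mean was 1.05, and 108 genes were above 2. Several at the top were carried by few cells. S100a8, a calcium-binding protein of neutrophils, had a variance over mean of 47.3 with a UMI in 13 cells, S100a9 of 19.8 in 10 cells and H2-Eb1 of 18.2 in 5 cells. Cd74 (34.4) had a UMI in 96 cells and H2-Aa (18.0) in 51, so class II levels differed from cell to cell. In control PNX the 3 cells with exactly 2 marker UMIs had Cd74 at 53219 CPM, against 1904 CPM in the other 12. In control sham the 5 such cells had 21442 CPM against 4888 CPM in the other 22. H2-Aa had 18987 CPM in the 3 cells of control PNX and 56 CPM in the other 12. Nearly all its control PNX UMIs lay in a single cell, as given below, so class II levels summed over the 3 need not hold for each.

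The monocyte-like cells made up 1.14% (exact Clopper-Pearson 95% interval 0.752 to 1.65) of the cells of null PNX, 1.53% (1.14 to 2.0) of null sham, 0.666% (0.373 to 1.1) of control PNX and 1.28% (0.845 to 1.86) of control sham. These intervals, and all below, cover counting error only. The ratio of shares was 0.747 (0.45 to 1.21) for null PNX over null sham, 1.71 (0.878 to 3.46) for null PNX over control PNX, 1.19 (0.734 to 1.98) for null sham over control sham and 0.521 (0.258 to 1.01) for control PNX over control sham. Each interval held 1. For null PNX over null sham the ratio was 0.521 (0.28 to 0.927) with at least 3 marker UMIs and 0.564 (0.318 to 0.965) with C1q at 0, and neither interval held 1. As a share of the cells with Sftpc below 4%, the ratio was 0.556 (0.335 to 0.903) for null PNX over null sham, which leaves out 1, 0.547 (0.281 to 1.11) for null PNX over control PNX, 0.661 (0.407 to 1.1) for null sham over control sham and 0.671 (0.332 to 1.31) for control PNX over control sham. The direction thus turned for null PNX over control PNX and for null sham over control sham.

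Macrophage-rule cells were 2.53% (1.94 to 3.25) of null PNX, 0.598% (0.366 to 0.922) of null sham, 0.311% (0.125 to 0.639) of control PNX and 0.616% (0.328 to 1.05) of control sham. Of both sets together, the monocyte-like cells were 31% (21.5 to 41.9) in null PNX, 71.8% (59.9 to 81.9) in null sham, 68.2% (45.1 to 86.1) in control PNX and 67.5% (50.9 to 81.4) in control sham, so the interval of null PNX lay below the others. After thinning to 1500 UMIs these shares were 22% (11.5 to 36) in null PNX, 72.1% (56.3 to 84.7) in null sham, 61.5% (31.6 to 86.1) in control PNX and 65.2% (42.7 to 83.6) in control sham, and the intervals of null PNX and control PNX then overlapped. The sort for GFP and the smallest depth kept in each library bear on such shares, and their part was not tested.

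**Figure D3:**
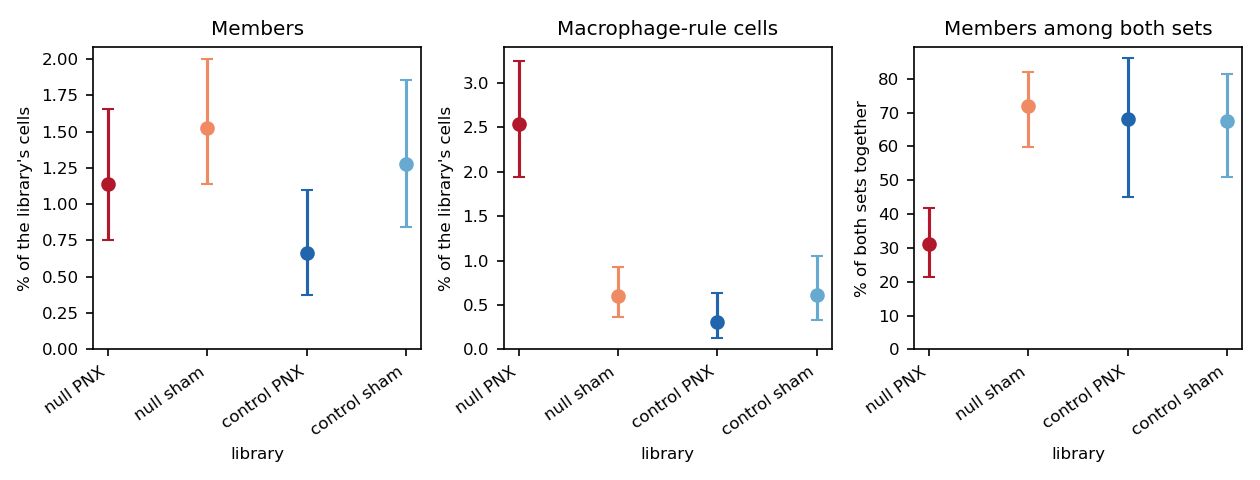
Share of the monocyte-like cells (left, members), of macrophage-rule cells (middle) and of monocyte-like cells among both sets (right) in each library, with exact 95% counting intervals. Null PNX has the most macrophage-rule cells, 2.53%, and the lowest share of monocyte-like cells among both, 31%.

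Across libraries, the monocyte-like cells of null PNX carried fewer of the other non-classical markers. Thinned to 1500 UMIs, they had a median of 7 of 22 per cell, against 11 in null sham, 11.5 in control PNX and 11 in control sham. Summed, these 22 markers came to 9373 CPM in null PNX, 16993 in null sham, 16385 in control PNX and 17102 in control sham. Cells at the edge of the rule were more common in null PNX, where 10 of 27 had exactly 2 marker UMIs, against 5 of 51, 3 of 15 and 5 of 27. A C1q UMI was found in 7 of 27, against 1 of 51, 0 of 15 and 0 of 27. Among cells with at least 3 marker UMIs, the 22 other markers summed to 11221 CPM in null PNX, 18576 in null sham, 19990 in control PNX and 19135 in control sham.

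**Figure D4:**
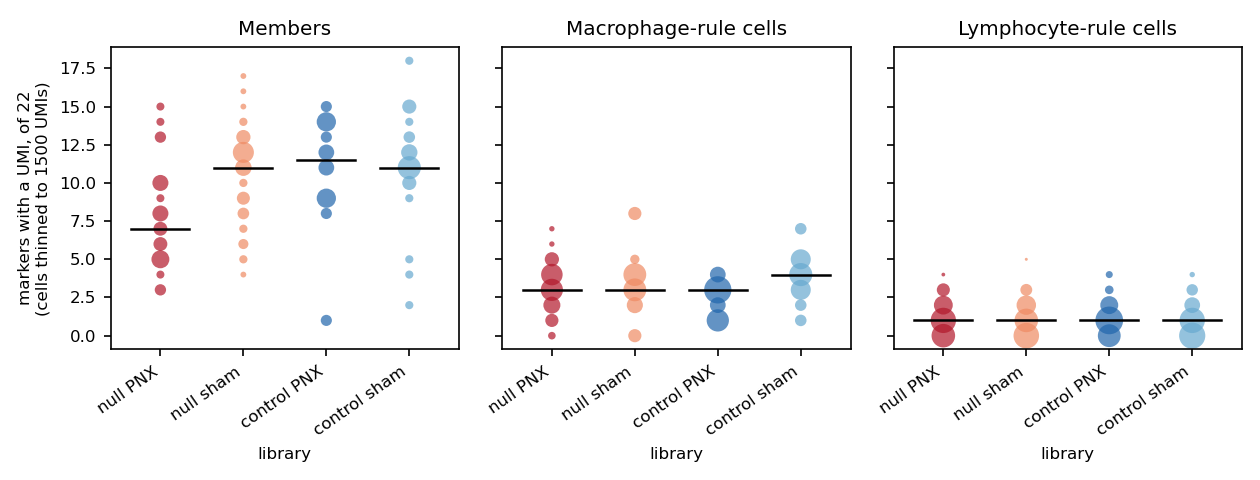
Number of the 22 non-classical markers outside the rule that had a UMI in cells thinned to 1500 UMIs, by library; point area is the share of the library's cells and the black line the median. The monocyte-like cells (members) of null PNX have a median of 7, against 11 to 11.5 in the other libraries, and macrophage-rule cells have 3 to 4.

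Null PNX was set against null sham, which compares surgery within the null genotype. Ratios are of CPM over summed UMIs, with exact binomial 95% intervals, for genes with at least 20 UMIs. Of 2853 genes, 20.5% were past 2-fold either way, 10.6% at least 2-fold higher and 9.95% at most 0.5-fold. Of the 22 other non-classical markers, 1 was at least 2-fold higher and 10 were at most 0.5-fold (median log2 -0.89, all genes 0.04). With at least 3 marker UMIs, with C1q at 0, and without the cells of another lineage, these counts were 1 and 9 each time. Itgal had 87 CPM in null PNX and 568 CPM in null sham (0.153, 0.0836 to 0.262). Spn had 81.2 and 362 CPM (0.224, 0.118 to 0.396) and Fcgr4 98.6 and 398 CPM (0.247, 0.139 to 0.417). Ace, with 162 and 423 CPM, was at 0.384. The regulators of the lineage were lower by less: Nr4a1 was at 0.557 and Cebpb at 0.541, and Eno3 was at 0.695 (0.467 to 1.02). The marker above 2-fold was Ceacam1, an adhesion molecule, with 162 and 44.3 CPM (3.67, 1.77 to 8.17), of which 1 cell held 28.6% in null PNX. The 13 interstitial macrophage markers, C1q included, summed to 1015 CPM in null PNX and 724 CPM in null sham, with 8 and 4 of them above 0, and the 15 alveolar macrophage markers to 1009 and 1417 CPM. In control PNX and control sham the interstitial markers summed to 1408 and 1125 CPM, with 4 and 3 above 0, and the alveolar markers to 813 and 2205 CPM. Their part in these ratios was not tested.

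Survival genes and transcription factors were low in null PNX as well. Of 8 survival genes, 0 were at least 2-fold higher and 5 at most 0.5-fold. Bcl2, which blocks cell death at mitochondria, had 17.4 CPM in null PNX and 141 CPM in null sham (0.124, 0.0243 to 0.392), on 3 and 35 UMIs, and was at 0.409 in lymphocyte-rule cells. Bcl2a1a, Bcl2a1b and Bcl2a1d, near-identical copies that counting may split, were at 0.239, 0.214 and 0.281, and Mcl1 was at 0.74 (0.487 to 1.11). Of 15 transcription factors 0 were at least 2-fold higher and 8 at most 0.5-fold, and with C1q at 0 4 of 15 were at most 0.5-fold. Tcf7l2, a factor of Wnt signalling, had 11.6 and 133 CPM (0.0873, 0.0102 to 0.342), on 2 and 33 UMIs. Klf4 was at 0.398, Spi1 at 0.419, Klf2 at 1.25 and Pou2f2, also counted among the non-classical markers, at 0.474. Of 9 inflammatory genes 0 were at least 2-fold higher and 4 at most 0.5-fold (with C1q at 0 2 of 9), with the chemokine Cxcl2 at 0.267, Nfkbia at 0.445 and Il1b at 1.03 (0.757 to 1.39).

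Ccr2, lost in textbook non-classical monocytes, was among the highest ratios of null PNX over null sham. Wfdc17, a secreted antiprotease-like protein, had 534 and 80.5 CPM (6.63, 4.05 to 11.4) and was at 0.406 in lymphocyte-rule cells. Ccr2 had 203 and 36.2 CPM (5.6, 2.64 to 13.3) and was at 2.42 in lymphocyte-rule cells. In the monocyte-like cells of control PNX and control sham Ccr2 had 139 and 151 CPM, so that null sham was the lowest library. Clec4a2, a C-type lectin, was at 5.56 (2.36 to 15.1). Tmem176a (6.41), Tmem176b (5.43) and Dmkn (5.15) were high in lymphocyte-rule cells too, at 5.49, 3.62 and 4.52. Lowest were Gm12216 (0.067, 0.00787 to 0.257), Cbr2 (0.081), Tcf7l2, Ly6i (0.115), Marcksl1 (0.116) and Bcl2. In lymphocyte-rule cells Cbr2 was at 0.137 as well, Gm12216 at 0.292, Marcksl1 at 1.5 and Ly6i at 0.361, on 1.72 and 4.77 CPM. In the monocyte-like cells Ly6i was highest in null sham, with 87 CPM in null PNX, 757 in null sham, 139 in control PNX and 354 in control sham. MHC class II genes were at least 2-fold higher in 4 of 6 and at most 0.5-fold in 0: H2-Ab1 had 2326 and 660 CPM (3.52), H2-Aa 2767 and 1127 CPM (2.46), H2-DMb1 was at 3.14 and H2-DMa at 2.95. H2-Aa had 2365 and 1250 CPM in cells with at least 4% Sftpc of the same libraries, and 982 and 1072 CPM in lymphocyte-rule cells.

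**Figure D5:**
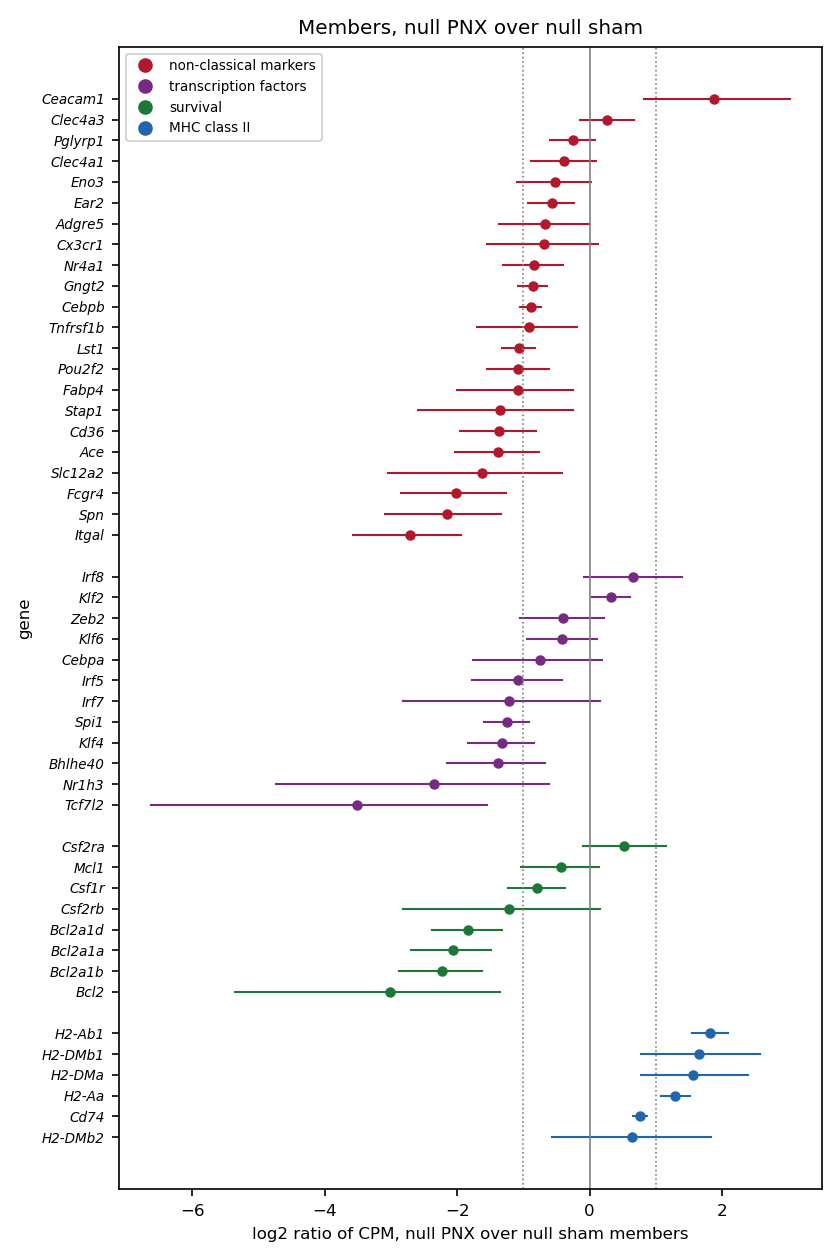
Log2 ratio of CPM, null PNX over null sham, in the monocyte-like cells for the measured genes of 4 lists that are reported here, with exact 95% counting intervals; dotted lines mark 2-fold. Of the non-classical markers outside the rule, 10 lie at or below 0.5-fold and Ceacam1 lies above 2-fold, while 4 class II genes lie above 2-fold.

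Null PNX was also set against control PNX, which compares the genotypes after surgery and shares the null PNX library with the comparison above. Of 1648 genes, 30.2% were past 2-fold, 21.1% higher and 9.16% lower. Of 21 other non-classical markers 1 was at least 2-fold higher and 8 at most 0.5-fold (median log2 -0.93, all genes 0.12). Without the cells of another lineage these counts were 1 and 11 of 21. Itgal had 87 CPM in null PNX and 734 CPM in control PNX (0.119, 0.0604 to 0.221). Fcgr4 had 98.6 and 615 CPM (0.16, 0.0832 to 0.299), with 41.9% of its control PNX UMIs in 1 cell. Ace was at 0.264 (0.153 to 0.455) and Spn at 0.315 (0.137 to 0.728), while Nr4a1 was at 0.547 and Cebpb at 0.735. Of 6 survival genes 0 were at least 2-fold higher and 4 at most 0.5-fold, with Mcl1 at 0.317. Class II rested on 1 cell: H2-Aa was at 0.496, but 98.9% of its control PNX UMIs lay in that cell, and without the highest cells it was at 29.5. Of 6 class II genes 0 were at least 2-fold higher and 2 at most 0.5-fold, but without the cells of another lineage, and likewise with at least 3 marker UMIs, 5 of 5 were at least 2-fold higher.

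The highest genes of null PNX over control PNX were near 0 in control PNX. Dmkn (41.8, 7.39 to 1663), Ctsd (21.3, 3.71 to 855), Hmgn1 (14.9, 2.56 to 600), Cd81 (12.9, 2.19 to 520) and Pgd (10.8, 1.82 to 439) had 1 UMI there, and Krt8, an epithelial keratin, had 0, so that it was at least 34.5-fold higher in null PNX. Krt8 was at 44.2, Cd81 at 8.43 and Dmkn at 6.38 in lymphocyte-rule cells, and Hmgn1 and Pgd at 0.921 and 0.988. Among the lowest besides Itgal were the cyclin Ccnd3 (0.232), the Src-family kinase Fgr (0.275), Cytip (0.282) and Rps27rt (0.305). In lymphocyte-rule cells Itgal was at 0.722, Ccnd3 at 0.523 and Cytip at 0.648. Fgr was at 0.181 there, on 5.17 and 28.5 CPM, and Rps27rt, which has near-identical copies, at 0.22.

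Null sham was set against control sham, which compares the genotypes without lung removal. Of 2379 genes 17.4% were past 2-fold, 11.8% higher and 5.63% lower. Of 21 other non-classical markers 0 were at least 2-fold higher and 1 at most 0.5-fold (median log2 -0.10, all genes 0.08). That gene was Ear2, with 890 CPM in null sham and 1798 CPM in control sham (0.495, 0.407 to 0.602). Id3, an inhibitor of bHLH factors, had 225 and 8.86 CPM (25.5, 4.38 to 1023), on 56 and 1 UMIs, and was at 1.13 in lymphocyte-rule cells. Slc2a6, a sugar transporter, was at 9.54 (2.48 to 81.4), Bhlhe40 at 2.99 and Cxcl2 at 3.04. Cldn3 (15, 2.51 to 610), Anxa3 (10, 2.61 to 85.1), S100a1 (9.85, 3.22 to 49) and Dmkn (9.09, 2.36 to 77.6) were at 1.54, 2.09, 2.43 and 2.2 in lymphocyte-rule cells. AT2 genes were at least 2-fold higher in 6 of 9, Sftpa1 at 2.51 and Sftpb at 2.47, but with at least 3 marker UMIs in 2 of 8. The 9 AT2 genes summed to 17903 CPM in null sham and 13329 CPM in control sham, and in lymphocyte-rule cells to 11145 and 10820 CPM. In lymphocyte-rule cells Sftpc, part of that sum, was lower in null sham, at 5552 and 7771 CPM. Other AT2 genes were higher there: Sftpa1 had 2527 and 1372 CPM, Sftpb 1535 and 823, Sftpd 297 and 170, Cxcl15 445 and 303 and Slc34a2 383 and 141. Class II genes were at most 0.5-fold in 5 of 7, and in 1 of 6 without the cells of another lineage. Lowest were Gm10116 (0.1), Susd3 (0.172), Rps18-ps3 (0.216), Epsti1 (0.303), Gm8797 (0.306) and Tspan13 (0.312), of which Gm10116, Rps18-ps3 and Gm8797 may share reads with near-identical copies.

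Control PNX was set against control sham, which compares surgery in control mice on 15 and 27 cells. Of 1114 genes 14.0% were past 2-fold, 5.30% higher and 8.71% lower. Of 21 other non-classical markers 0 were at least 2-fold higher and 2 at most 0.5-fold (median log2 0.01, all genes 0.03). Ear2 was one of them, with 615 CPM in control PNX and 1798 CPM in control sham (0.342, 0.226 to 0.501). Of 6 inflammatory genes 2 were at least 2-fold higher, the neutrophil chemokine Cxcl2 (3.67, 2.33 to 5.84) and Ccl9 (2.63, 1.55 to 4.47), with 31.5% and 26.5% of their control PNX UMIs in 1 cell. Among the highest were Eef1g (3.08), Tmed5 (2.8), Sumo2 (2.63), Pdia6 (2.61) and Tmed2 (2.41). Tmed5, Tmed2 and Pdia6 act in the secretory pathway, and were at 1.05, 1.17 and 0.974 in lymphocyte-rule cells. Lowest were Gm10116 (0.0584), the club cell secretoglobin Scgb1a1 (0.226), Hp (0.264), Rps18-ps3 (0.267), Gm8797 (0.297) and Mpeg1 (0.303), a pore-forming protein of phagocytes. Gm10116 and Scgb1a1 were at 0.0574 and 0.272 in lymphocyte-rule cells.

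Cdc42 had 737, 797, 1012 and 877 CPM in the monocyte-like cells of null PNX, null sham, control PNX and control sham. Its ratio was 0.924 (0.734 to 1.16) for null PNX over null sham, 0.728 (0.522 to 1.03) for null PNX over control PNX, 0.909 (0.711 to 1.17) for null sham over control sham and 1.15 (0.806 to 1.63) for control PNX over control sham, and each interval held 1. Which part of Cdc42 is floxed was not stated, so a 3′ count need not show a deletion. The deleted allele that all cells of null mice carry, by the genotype as written, may bear on these levels, and its part was not tested.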

How the data were processed

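GFP+ lung cells were sorted and sequenced with the 10x Genomics 3′ chemistry, 1 library a group, per the labels' protocols. The deposited table holds raw UMI counts, 17117 genes by 10077 cells, and the barcode ending gives the library. The submitters' processing notes name Cell Ranger 2.1.0, Seurat 2.3.4 and mm10. Cells entered by the stated rules with no further filter, and doublets were kept.

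Counts were summed per library and cell set and tested with edgeR 4.0.16 in R 4.3.3 (glmQLFit, glmQLFTest, TMM, filterByExpr, library as block because both sums come from the same library, adjusted p 0.05), tested first on simulated data. P-values measure the spread, over the 4 libraries, of the difference between the cell sets within a library. The libraries are 1 of each group and not replicates of a group. Libraries were compared by ratios of CPM with exact binomial intervals, with a count of 0 set to 3. Tables were made with Python 3.11.15. Genes were named as the 12 highest and 12 lowest calls (at least 100 CPM, 1 direction in 4 libraries) or the 6 highest and 6 lowest ratios (at least 30 UMIs and 5 cells, no cell above 25%, interval without 1), besides listed genes. The cells and gene lists were chosen with earlier results of these data known. Lymphocyte-rule cells were added as a background after the data had been seen, as was the setting without cells of another lineage. Some genes of the lists and of these named genes are not reported here. Alternatives were DESeq2 1.42.0, other filters, thresholds and left-out libraries.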

Additional observations from a re-analysis of the deposited data

Results flagged for a closer look

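Ccnd3, a D-type cyclin, had PNX over sham ratios on opposite sides of 1 in the null and control genotypes, with counting intervals that leave out 1. The difference between genotypes was not tested, since each group is 1 library. It had 133 CPM in null PNX and 262 CPM in null sham (0.51, 0.302 to 0.832), and 575 CPM in control PNX and 328 CPM in control sham (1.76, 1.04 to 2.93). In lymphocyte-rule cells its ratios were 0.998 in null and 1.21 in control mice, and in cells with at least 4% Sftpc 0.935 and 1.59.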

How the results depend on the processing

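The share of monocyte-like cells in null PNX was 0.717% with at least 3 marker UMIs. Among cells under the Sftpc limit the shares were 2.52% in null PNX, 4.53% in null sham, 4.6% in control PNX and 6.85% in control sham, and after thinning to 1500 UMIs 0.464%, 0.939%, 0.366% and 0.757%. Against macrophage-rule cells, leaving out 1 library gave 47 to 139 genes higher and 55 to 122 lower. With no low-count filter, which tests 13233 genes, 222 were higher and 259 lower. Without the replicate block 115 were higher and 87 lower, and DESeq2 called 118 and 93; the 257 genes called kept their direction in both. Without cells of another lineage, chosen after seeing the data, 102 were higher and 102 lower. With at least 50 UMIs a gene, which measures fewer genes, 200 were past 2-fold for null PNX over null sham, 164 for null PNX over control PNX, 125 for null sham over control sham and 38 for control PNX over control sham. With at least 3 marker UMIs null PNX over control PNX gave 329. H2-Aa in null PNX over control PNX reversed to 1.67 as a mean over cells, 54.4 with at least 3 marker UMIs, 45.9 without cells of another lineage and 29.5 without the highest cell. S100a8 in control PNX over control sham, at 0.027 with 95.2% of its control sham UMIs in 1 cell, reversed to 2.43, 1.79 and 2.03 in the last 3 of these settings. Where no construction shows it, the cause was not tested. The test against cells of the Ly6c2, Ccr2, F13a1 and Vcan rule, and so its alternatives, was not run.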
